A study of Mus musculus with 8 samples.

Results

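The TRIM genes are described here, the genes of the tripartite motif family of ubiquitin ligases, taken as every identifier of the deposited count table whose mouse symbol consists of Trim, a number and at most 1 letter from a to d. The rule used names only and found 68 of 55414 identifiers, and 45 of these had enough reads to be tested among 16304 genes. RNA was sequenced from iBMDM cells, immortalized macrophages of wild-type mouse genotype, in 8 libraries that form 4 groups of 2. DSF+LPS cells had 5 μM disulfiram (DSF) for 0.5 h, followed by LPS (lipopolysaccharide) at 1 μg/ml for 4 h, and DSF cells had the same dose of the drug and then water. LPS cells had the drug's solvent DMSO and then 1 μg/ml LPS for 4 h, and control cells had DMSO and then water. The study asked whether DSF blocks the response to LPS, a bacterial ligand of TLR4 and its co-receptor MD-2. DSF is otherwise used against alcohol dependence. Whether libraries 1 and 2 of a group came from separate cultures is not said, so p-values measure the spread between these libraries, which may be technical. All libraries come from 1 immortalized line, and fewer cells with a transcript cannot be told apart from less of it in each cell.

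Most TRIM proteins carry a RING domain, which recruits an E2 enzyme that hands over ubiquitin, followed by B-boxes, a coiled coil and a variable end such as the PRY-SPRY domain that binds the target. Several act in innate immunity, where they ubiquitinate sensors of viral RNA and their adaptors or bind viral proteins, and a part of them are interferon-stimulated genes. LPS acts through TLR4 to make macrophages release type I interferon, whose receptor activates ISGF3, a transcription factor complex that binds the interferon-stimulated response element (ISRE) in promoters. Others are chromatin regulators, microtubule-bound proteins, or proteins of muscle, neurons and red blood cell precursors.

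Library totals lay between 17822041 and 21694922 counts. The defining markers of macrophages were present, with all 8 detected and a summed level of 1908 to 2535 CPM (reads scaled to library size) in every library. Single markers differed, and Mertk had 0.540 to 2.37 CPM. Fcgr1 had 9.89 to 12.0 CPM in drug-treated and 41.9 to 52.9 CPM in other libraries. Csf1r had 443 to 576 CPM in drug-treated and 775 to 833 CPM in other libraries. Cd68 went the other way, at 735 to 964 CPM in drug-treated and 535 to 592 CPM in other libraries. Summed markers of lymphocytes reached at most 0.103 CPM, of neutrophils 0.981, of fibroblasts 1.22, of erythroid cells 1.60, of germ cells 1.56, of dendritic cells 2.83 and of neurons 11.3 CPM. Summed muscle markers had 21.0 and 19.5 CPM in DSF+LPS, 14.3 and 14.2 in DSF, 34.9 and 35.2 in LPS, and 6.57 and 9.37 CPM in control libraries, without overlap between groups. The titin gene Ttn alone had 18.7 and 17.7 CPM in DSF+LPS, 12.4 and 12.1 in DSF, 34.5 and 34.7 in LPS, and 5.90 and 8.50 CPM in control libraries, and the other 4 muscle markers were at or below 2.02 CPM each. Genes with at least 1 count numbered 25081 and 23416 in DSF+LPS libraries, 24660 and 24298 in DSF, 20324 and 20303 in LPS, and 19779 and 20318 in control libraries. The TRIM genes together made up 1864 and 1932 CPM in DSF+LPS libraries, 1940 and 1884 CPM in DSF, 2524 and 2507 CPM in LPS, and 2100 and 2167 CPM in control libraries. The sum was thus highest in the LPS libraries and lowest in those with the drug, with no overlap between libraries with and without DSF.

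LPS alone raised members of the Trim5 cluster and of the innate signalling group, and with DSF present 1 tested TRIM gene rose. With LPS alone, 14 of the 45 tested TRIM genes rose (31.1%, against 15.2% of all genes tested) and 10 fell (22.2%, against 13.8%). Calls rest on a Benjamini-Hochberg adjusted p under 0.05 in edgeR's quasi-likelihood test, and 11 rises and 3 falls were at least 2-fold. With DSF alone, 13 rose (28.9%, against 31.0% of all genes) and 17 fell (37.8%, against 27.1%). Between DSF+LPS and LPS libraries, 15 were higher with the drug (33.3%, against 33.7% of all genes) and 21 were lower (46.7%, against 31.6%), 14 of them by at least 2-fold. Between DSF+LPS and DSF libraries, 1 rose (2.22%, against 5.53%) and 7 fell (15.6%, against 6.53%), none by 2-fold. The interaction is the LPS response with DSF minus that without it. It was negative in 14 TRIM genes (31.1%, against 12.2% of all genes) and positive in 5 (11.1%, against 7.58%). The higher counts with DSF were thus near the share over all genes. They include Trim10 and Trim15 in DSF against control and, with Trim43c, in DSF+LPS against LPS, which passed the low-count filter only through drug-treated libraries, so their calls support nothing. Without them 11 members were higher in DSF than in control and 12 in DSF+LPS than in LPS libraries. Median log2 fold changes of the tested TRIM genes were 0.02 with LPS, -0.03 with DSF, -0.34 for DSF+LPS against LPS, -0.07 for DSF+LPS against DSF and -0.14 for the interaction, and over all genes they were 0.02, 0.05, 0.04, -0.003 and -0.02. The 10 falls with LPS became 5 without control replicate 2 and 6 without either LPS library. The 7 falls of DSF+LPS against DSF became 0 without DSF replicate 1 and 1 with only the libraries of the comparison, the single rise became 0 or 2, and the 5 positive interactions became 3 without control replicate 1, DSF replicate 1 or LPS replicate 2.

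**Figure D1:**
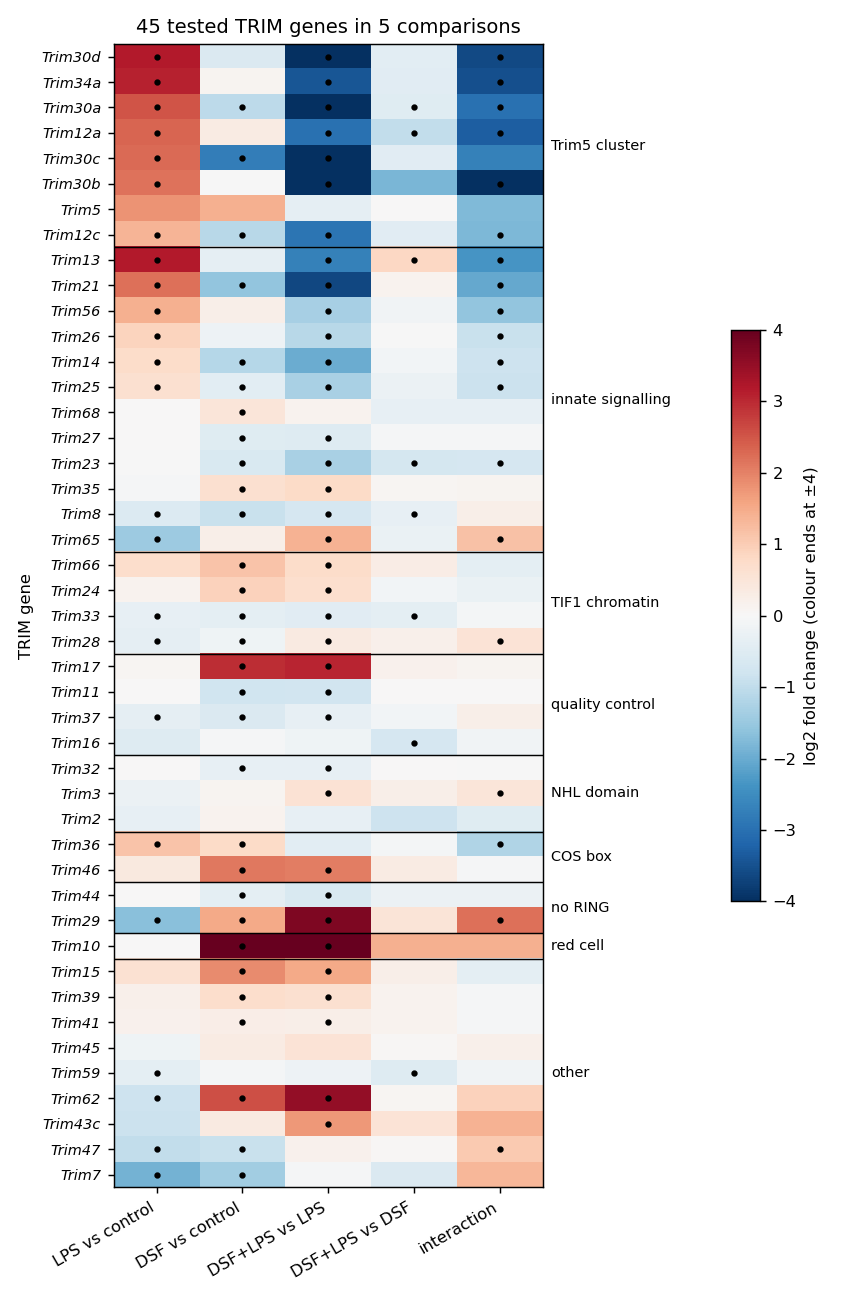
Log2 fold changes (colour, ending at ±4) of the 45 tested TRIM genes, in rows grouped by role, in 5 comparisons in columns; a dot marks an adjusted p under 0.05. In the top block, 7 of 8 genes of the Trim5 cluster are red with LPS and blue for DSF+LPS against LPS, and the colour of Trim10 with DSF rests on 0 counts in LPS and control libraries and gives no size.

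Genes of the Trim5 cluster, a run of duplicated genes on chromosome 7 whose human relative TRIM5 binds retroviral capsids, made up 4 of the 5 largest rises with LPS, beside Trim13. The cluster held 10 identifiers of the rule, in the order Trim6, Trim34a, Trim5, Trim12a, Trim34b, Trim12c, Trim30b, Trim30c, Trim30a and Trim30d in the older RefSeq assembly GRCm38.p6. Of the 8 tested, 7 rose with LPS and 0 fell (median log2 fold change 2.29), and all of these 7 were lower in DSF+LPS than in LPS libraries (median over the 8, -3.73). DSF alone lowered 3 of the 8, near the share over all genes (27.1%), and the interaction was negative in 6 (over all genes, 12.2%). Over all genes, 15.2% rose and 13.8% fell with LPS, and 31.6% were lower in DSF+LPS than in LPS libraries. Trim30a, which in mice restrains TLR signalling by removing the TAK1 adaptors TAB2 and TAB3, had 10.2 and 10.2 CPM in DSF+LPS libraries, 15.2 and 13.6 CPM in DSF libraries, 174 and 162 CPM in LPS libraries, and 28.1 and 31.2 CPM in control libraries. The LPS libraries stood far above the rest, and DSF+LPS libraries lay below both control libraries. Its log2 fold change with LPS was 2.50 (SE 0.09, edgeR adjusted p = 2.39e-11), a 5.66-fold rise. It was -1.04 with DSF alone and -4.04 (SE 0.10, edgeR adjusted p = 5.56e-13) for DSF+LPS against LPS, 16.4-fold lower. Per kilobase of exon, Trim30a ranked 24th of the tested TRIM genes in DSF+LPS libraries (2.49 CPM per kb), 22nd in DSF (3.50), 3rd in LPS (40.9) and 15th in control libraries (7.21).

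The other called cluster members were also highest with LPS. Trim30d had 0.858 and 0.982 CPM in DSF+LPS libraries, 0.906 and 1.60 CPM in DSF libraries, 16.8 and 16.7 CPM in LPS libraries, and 1.24 and 2.40 CPM in control libraries, so that only the LPS libraries were above 3 CPM. Its log2 fold change was 3.18 (SE 0.26, edgeR adjusted p = 2.51e-07) with LPS and -4.18 (SE 0.30, edgeR adjusted p = 1.68e-08) for DSF+LPS against LPS. Trim34a had 1.51 and 1.96 CPM in DSF+LPS libraries, 1.90 and 2.89 CPM in DSF libraries, 18.4 and 19.0 CPM in LPS libraries, and 2.22 and 2.22 CPM in control libraries. Only the LPS libraries stood apart, and its changes were 3.07 (SE 0.21, edgeR adjusted p = 2.60e-08) with LPS and -3.42 (SE 0.22, edgeR adjusted p = 5.29e-09) for DSF+LPS against LPS. Reads of Trim34a may in part belong to its copy Trim34b, since 61.9% of the 50-base stretches of its longest transcript also occur in other genes, and how the authors counted such reads is not given. Trim12a, a relative of TRIM5, had 2.32 and 2.73 CPM in DSF+LPS libraries, 5.16 and 4.75 CPM in DSF libraries, 18.3 and 21.7 CPM in LPS libraries, and 4.24 and 3.75 CPM in control libraries. Trim12c, another such relative, had 3.18 and 2.95 CPM in DSF+LPS libraries, 4.48 and 3.82 CPM in DSF libraries, 23.5 and 22.9 CPM in LPS libraries, and 9.26 and 8.72 CPM in control libraries. In both, LPS libraries were highest and DSF+LPS libraries lowest, without overlap. Log2 fold changes with LPS were 2.33 for Trim12a and 1.37 for Trim12c, and those for DSF+LPS against LPS were -2.99 and -2.92 (adjusted p from 9.37e-10 to 2.15e-06 over these 4 values). DSF alone lowered Trim12c (log2 fold change -1.11, SE 0.16, edgeR adjusted p = 3.27e-05), while Trim12a had 0.32 (SE 0.19, edgeR adjusted p = 0.162). Of the 50-base stretches of Trim12c, 33.4% also occur in other genes, mostly Trim5 and Trim12a.

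Trim30b and Trim30c were scarce. Trim30c had 0.101 and 0.109 CPM in DSF+LPS libraries, 0.136 and 0.155 CPM in DSF libraries, 5.25 and 4.59 CPM in LPS libraries, and 1.24 and 0.828 CPM in control libraries, and the low groups rest on 2 and 2 counts in DSF+LPS and 3 and 3 counts in DSF libraries. The LPS libraries were highest and the drug-treated ones lowest. Its log2 fold changes were 2.26 (SE 0.34, edgeR adjusted p = 1.25e-04) with LPS, -2.77 (SE 0.54, edgeR adjusted p = 4.64e-04) with DSF and -5.47 (SE 0.49, edgeR adjusted p = 2.07e-07) for DSF+LPS against LPS. Trim30b had 0.252 and 0.109 CPM in DSF+LPS libraries, 0.815 and 0.516 CPM in DSF libraries, 3.04 and 3.20 CPM in LPS libraries, and 0.621 and 0.741 CPM in control libraries, with LPS libraries again on top, and its changes were 2.18 (SE 0.41, edgeR adjusted p = 8.00e-04) with LPS and -4.05 (SE 0.51, edgeR adjusted p = 6.85e-06) for DSF+LPS against LPS. Trim5 itself, at most 0.908 CPM, had 1.79 (SE 0.94, edgeR adjusted p = 0.182) with LPS and -0.37 (SE 0.81, edgeR adjusted p = 0.708) for DSF+LPS against LPS. Its LPS libraries differed from each other, at 0.0982 and 0.908 CPM. Trim6 had 0 counts in every library, which allows at most 0.0184 CPM over the 8 together. Trim34b was not tested and had 0.0505 and 0.273 CPM in DSF+LPS libraries, 0.0906 and 0.0516 CPM in DSF libraries, 0.393 and 1.20 CPM in LPS libraries, and 0 and 0.218 CPM in control libraries.

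Promoters of the LPS-raised members were searched for the ISRE, spelled GAAA, 2 bases of any kind, and GAAA, on either strand, in windows of 300 bases, 250 before to 50 after each RefSeq start site. A promoter was found for 53 of the 68 TRIM genes, and for 33 of the 45 tested. The element occurred in 3.44% of 32851 promoters of all genes. By gene, it occurred in 3.99% of 27025 genes with a promoter. It occurred in 7 of the 12 LPS-raised members with a promoter (Trim12a, Trim12c, Trim21, Trim26, Trim30a, Trim30d and Trim34a), in 0 of 6 that fell and in 2 of 15 that were not called (Trim2 and Trim5). The promoters of 6 of these 7 are printed because they show how alike the elements are, 5′ to 3′ on the gene's strand, with the matched letters in capitals. In the RefSeq assembly GRCm38.p6 they are Trim21 at chr7:102565433-102565732 (minus strand), Trim26 at chr17:36836896-36837195 (plus strand), Trim34a at chr7:104244207-104244506 (plus strand), Trim30a at chr7:104465144-104465443 (minus strand), Trim30d at chr7:104507800-104508099 (minus strand) and Trim12c at chr7:104353300-104353599 (minus strand).
Trim21: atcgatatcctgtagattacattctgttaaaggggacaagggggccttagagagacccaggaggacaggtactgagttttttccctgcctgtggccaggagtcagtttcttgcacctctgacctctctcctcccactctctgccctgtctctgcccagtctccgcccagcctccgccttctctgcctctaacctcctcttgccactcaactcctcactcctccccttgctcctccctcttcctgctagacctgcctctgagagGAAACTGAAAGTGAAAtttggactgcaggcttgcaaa
Trim26: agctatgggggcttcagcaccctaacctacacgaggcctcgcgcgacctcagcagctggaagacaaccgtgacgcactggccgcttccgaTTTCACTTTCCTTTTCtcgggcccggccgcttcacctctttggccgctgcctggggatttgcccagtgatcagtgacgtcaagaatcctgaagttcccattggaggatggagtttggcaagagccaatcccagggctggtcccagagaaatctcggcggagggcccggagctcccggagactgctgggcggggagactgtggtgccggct
Trim34a: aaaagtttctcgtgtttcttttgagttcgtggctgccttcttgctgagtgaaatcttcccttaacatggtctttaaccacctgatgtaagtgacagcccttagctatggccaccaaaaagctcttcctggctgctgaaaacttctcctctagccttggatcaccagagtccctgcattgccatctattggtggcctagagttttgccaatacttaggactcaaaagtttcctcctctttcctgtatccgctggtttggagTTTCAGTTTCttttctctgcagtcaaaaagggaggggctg
Trim30a: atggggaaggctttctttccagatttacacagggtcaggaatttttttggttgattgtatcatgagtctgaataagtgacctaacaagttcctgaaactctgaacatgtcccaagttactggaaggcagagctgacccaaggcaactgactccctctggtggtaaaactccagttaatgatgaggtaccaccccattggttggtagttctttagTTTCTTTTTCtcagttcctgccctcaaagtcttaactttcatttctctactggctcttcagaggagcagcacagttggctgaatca
Trim30d: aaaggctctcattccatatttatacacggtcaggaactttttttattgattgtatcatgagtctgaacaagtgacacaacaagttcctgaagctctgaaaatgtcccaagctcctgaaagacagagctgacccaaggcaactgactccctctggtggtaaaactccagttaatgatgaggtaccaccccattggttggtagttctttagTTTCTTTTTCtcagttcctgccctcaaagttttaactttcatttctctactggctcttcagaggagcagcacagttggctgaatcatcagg
Trim12c: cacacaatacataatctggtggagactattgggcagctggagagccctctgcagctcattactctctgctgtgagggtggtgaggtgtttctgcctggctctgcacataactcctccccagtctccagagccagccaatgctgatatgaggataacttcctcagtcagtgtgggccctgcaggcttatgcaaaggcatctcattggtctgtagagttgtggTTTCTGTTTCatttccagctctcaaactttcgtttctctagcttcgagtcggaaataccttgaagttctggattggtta
Trim21 and Trim26 each hold a pair of overlapping matches, and the others hold 1. Trim30a and Trim30d share the letters TTTCTTTTTC and much of the sequence around them. Trim12c holds TTTCTGTTTC, and Trim12a and Trim5 are its relatives. The matches of such duplicated genes are not independent. Counted from the start site, the first matched base lies between -41 and 13 in the 5 genes of chromosome 7 and at -160 in Trim26. A match is a description of the letters. The NF-kB element (GGGA, 2 bases of any kind, TTCC), searched in the same windows, occurred in 0 of the 12 LPS-raised members and in 1.63% of all genes with a promoter. So few promoters cannot tell 0 from that share.

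**Figure D2:**
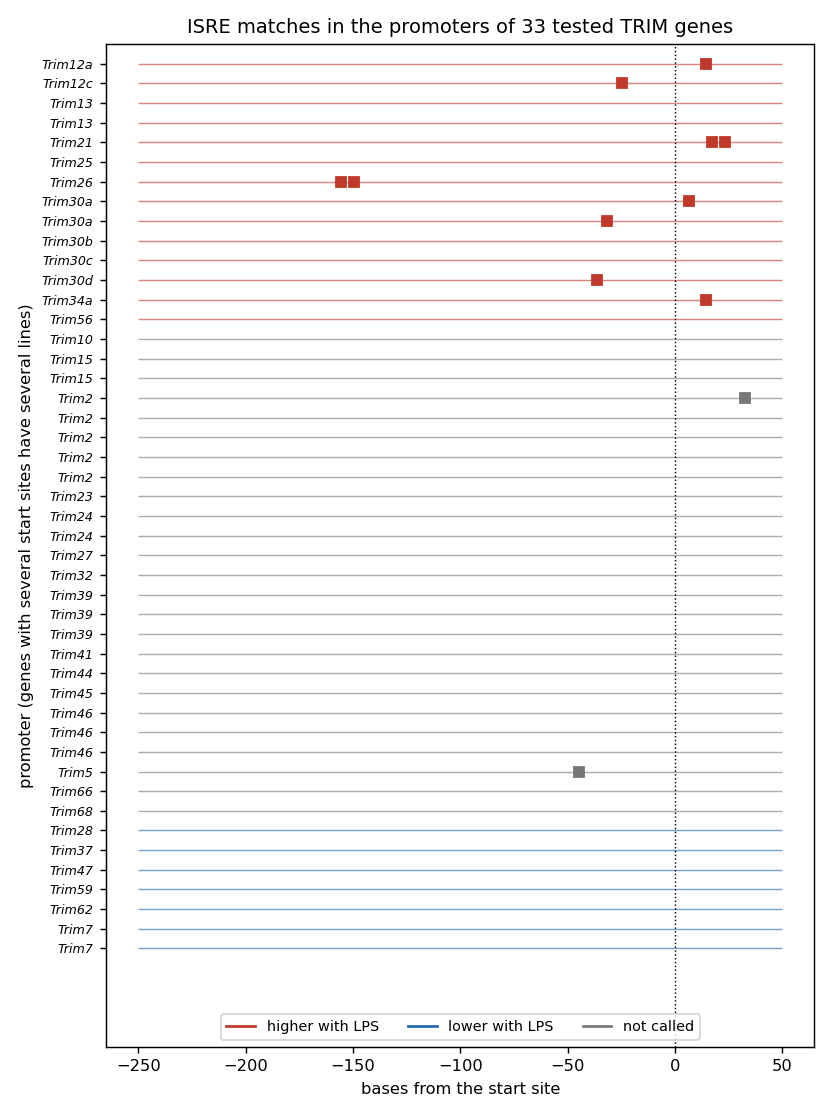
Position of ISRE matches (squares; x axis, bases from the RefSeq start site) in each promoter of 33 tested TRIM genes, with 1 line per start site coloured by the LPS call. Squares lie on lines of 7 LPS-raised genes and of 2 genes that were not called, and on no line of the 6 genes that fell.

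Members that act on innate signalling split into a group raised by LPS and smaller groups that fell or did not pass the test. Of 12 tested, 6 rose with LPS and 2 fell (over all genes, 15.2% and 13.8%), and 9 were lower and 2 higher in DSF+LPS than in LPS libraries (over all genes, 31.6% and 33.7%). Trim21, the cytosolic antibody receptor that sends antibody-coated viruses to the proteasome, had 3.73 and 4.31 CPM in DSF+LPS libraries, 4.03 and 3.15 CPM in DSF libraries, 55.4 and 45.6 CPM in LPS libraries, and 11.2 and 10.6 CPM in control libraries. LPS libraries were highest, control libraries lay between, and the drug-treated groups overlapped at the bottom. Its log2 fold changes were 2.21 (SE 0.14, edgeR adjusted p = 9.84e-09) with LPS, -1.59 (SE 0.17, edgeR adjusted p = 1.75e-06) with DSF and -3.65 (SE 0.16, edgeR adjusted p = 7.54e-11) for DSF+LPS against LPS, 12.6-fold lower. Trim13, a ligase anchored in the endoplasmic reticulum, had 5.70 and 8.40 CPM in DSF+LPS libraries, 5.03 and 2.74 CPM in DSF libraries, 47.6 and 44.5 CPM in LPS libraries, and 4.97 and 5.14 CPM in control libraries. It rose 9.09-fold with LPS (log2 fold change 3.18, SE 0.21, edgeR adjusted p = 1.40e-08), and DSF+LPS was lower than LPS (log2 fold change -2.71, SE 0.20, edgeR adjusted p = 2.32e-08). Control and DSF libraries overlapped, and DSF+LPS libraries lay just above them. Of its 50-base stretches, 14.5% also occur in Gm9359, which had at most 0.196 CPM in a library.

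Trim25, the ligase that ubiquitinates the viral RNA sensor RIG-I, had the highest level per kilobase of the LPS-raised members (82.7 CPM per kb in LPS libraries). It had 182 and 206 CPM in DSF+LPS libraries, 226 and 226 CPM in DSF libraries, 471 and 481 CPM in LPS libraries, and 298 and 311 CPM in control libraries. All 4 groups were apart, with LPS on top and DSF+LPS at the bottom. Log2 fold changes were 0.64 (SE 0.07, edgeR adjusted p = 4.27e-06) with LPS, -0.43 (SE 0.07, edgeR adjusted p = 1.08e-04) with DSF and -1.30 (SE 0.07, edgeR adjusted p = 9.23e-10) for DSF+LPS against LPS. Trim14, which lacks a RING and acts at the mitochondrial adaptor MAVS, had 15.9 and 13.4 CPM in DSF+LPS libraries, 15.7 and 15.9 CPM in DSF libraries, 57.2 and 58.6 CPM in LPS libraries, and 33.5 and 36.7 CPM in control libraries. The drug-treated groups overlapped at the bottom. It rose with LPS (log2 fold change 0.72, SE 0.10, edgeR adjusted p = 5.98e-05) and fell with DSF (log2 fold change -1.16, SE 0.11, edgeR adjusted p = 4.77e-07), and DSF+LPS was lower than LPS (log2 fold change -1.98, SE 0.11, edgeR adjusted p = 1.02e-09). Trim14 overlaps Nans on the opposite strand, and 57.8% of its 50-base stretches also occur in other genes, so reads of the pair may be mixed. Nans averaged 121 CPM in DSF+LPS, 106 in DSF, 109 in LPS and 133 CPM in control libraries and so did not follow the order of Trim14.

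Trim56, which acts on the STING pathway of DNA sensing, had 41.6 and 50.0 CPM in DSF+LPS libraries, 52.8 and 48.3 CPM in DSF libraries, 118 and 110.1 CPM in LPS libraries, and 39.6 and 45.5 CPM in control libraries, and only the LPS libraries stood apart. Its log2 fold change was 1.42 (SE 0.10, edgeR adjusted p = 4.95e-08) with LPS and -1.32 (SE 0.10, edgeR adjusted p = 4.17e-08) for DSF+LPS against LPS. Trim26, reported to act on the transcription factor IRF3, had 54.1 and 60.9 CPM in DSF+LPS libraries, 62.8 and 53.7 CPM in DSF libraries, 126 and 122 CPM in LPS libraries, and 67.4 and 67.0 CPM in control libraries. LPS libraries were on top, and control libraries lay just above the drug-treated ones. It rose (log2 fold change 0.88, SE 0.09, edgeR adjusted p = 2.11e-06) with LPS and was lower (log2 fold change -1.11, SE 0.09, edgeR adjusted p = 7.24e-08) in DSF+LPS than in LPS libraries. Neither passed the test with DSF alone, at 0.25 for Trim56 and -0.20 for Trim26.

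**Figure D3:**
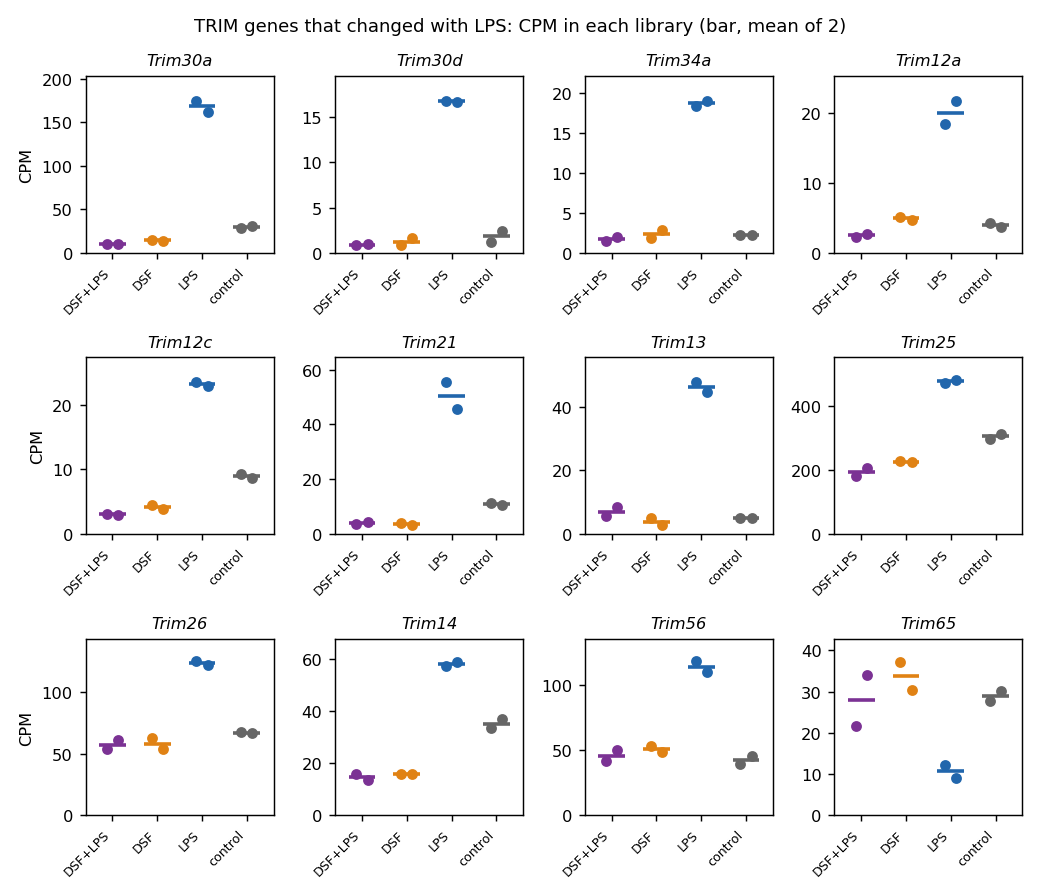
CPM (y axis, from 0) of 12 TRIM genes that changed with LPS, in DSF+LPS, DSF, LPS and control libraries; points are the 2 libraries of a group and bars their mean. In 11 panels the LPS points are on top, such as 174 and 162 CPM of Trim30a, and in the panel of Trim65 they are lowest, at 12.2 and 9.08 CPM.

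Trim65, which ubiquitinates the RNA sensor MDA5, moved the other way. It had 21.6 and 34.0 CPM in DSF+LPS libraries, 37.1 and 30.3 CPM in DSF libraries, 12.2 and 9.08 CPM in LPS libraries, and 27.7 and 30.1 CPM in control libraries, with the LPS libraries below all others. It fell with LPS (log2 fold change -1.44, SE 0.19, edgeR adjusted p = 3.80e-05) and was higher in DSF+LPS than in LPS libraries (log2 fold change 1.39, SE 0.19, edgeR adjusted p = 2.05e-05). Trim47, its neighbour, shares 8.23% of its exon bases with Trim65 on the same strand. Trim8, reported in NF-kB and cytokine signalling, had 47.2 and 52.8 CPM in DSF+LPS libraries, 66.8 and 57.9 CPM in DSF libraries, 79.0 and 79.6 CPM in LPS libraries, and 112 and 121 CPM in control libraries. Each of these groups lay below the next in the order given, without overlap, and the log2 fold changes were -0.55 (SE 0.09, edgeR adjusted p = 2.18e-04) with LPS, -0.90 (SE 0.09, edgeR adjusted p = 9.26e-07) with DSF and -0.67 (SE 0.09, edgeR adjusted p = 1.77e-05) for DSF+LPS against LPS. Trim23, which also carries an ARF GTPase domain, had 7.12 and 6.88 CPM in DSF+LPS libraries, 12.9 and 9.81 CPM in DSF libraries, 17.9 and 16.7 CPM in LPS libraries, and 16.8 and 18.3 CPM in control libraries. LPS and control libraries overlapped, while Trim23 fell with DSF (log2 fold change -0.62, SE 0.15, edgeR adjusted p = 0.00195) and was lower in DSF+LPS than in LPS libraries (log2 fold change -1.31, SE 0.15, edgeR adjusted p = 3.51e-06).

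Trim27, first known as a fusion partner of RET, had 111 and 119 CPM in DSF+LPS libraries, 123 and 113 CPM in DSF libraries, 167 and 159 CPM in LPS libraries, and 159 and 167 CPM in control libraries, so that the drug-treated libraries lay below the others. It fell with DSF (log2 fold change -0.47, SE 0.07, edgeR adjusted p = 8.73e-05) and was lower in DSF+LPS than in LPS libraries (log2 fold change -0.51, SE 0.08, edgeR adjusted p = 3.44e-05), and with LPS its value was 0.00. Trim35 went up with the drug and had 220.3 and 266 CPM in DSF+LPS libraries, 242 and 216 CPM in DSF libraries, 142 and 142 CPM in LPS libraries, and 147 and 144 CPM in control libraries. Its log2 fold changes were 0.66 (SE 0.09, edgeR adjusted p = 1.64e-05) with DSF and 0.78 (SE 0.09, edgeR adjusted p = 2.23e-06) for DSF+LPS against LPS, and among TRIM genes it ranked next to Trim28 per kilobase in drug-treated groups (52.6 CPM per kb in DSF+LPS and 49.6 in DSF) and had 31.5 CPM per kb in control libraries. Trim68 had 6.26 and 6.49 CPM in DSF+LPS libraries, 8.06 and 7.80 CPM in DSF libraries, 5.40 and 6.07 CPM in LPS libraries, and 6.00 and 5.41 CPM in control libraries. It rose with DSF (log2 fold change 0.48, SE 0.17, edgeR adjusted p = 0.0254). The call of Trim68 was lost at 0.55 without control replicate 1 (edgeR adjusted p = 0.0561), 0.40 without control replicate 2 (edgeR adjusted p = 0.158), 0.44 without DSF replicate 1 (edgeR adjusted p = 0.100), 0.50 without DSF replicate 2 (edgeR adjusted p = 0.0611), 0.38 with library size alone (adjusted p = 0.0721), 0.48 with DESeq2 (adjusted p = 0.135) and 0.44 with no low-count filter (adjusted p = 0.0917). For Trim68 the alternatives gave edgeR adjusted p from 0.0245 to 0.158. Trim31 and Trim38 were not tested, and Trim38 had at most 0.353 CPM.

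The 4 TIF1 genes encode chromatin regulators. With LPS 0 of them rose and 2 fell, numbers too small to set against the 15.2% and 13.8% of all genes. Trim28, also called KAP1, is the corepressor that KRAB zinc finger proteins recruit to silence retroelements, and it was the most abundant TRIM gene per kilobase in each group, at 133 CPM per kb in DSF+LPS, 117 in DSF, 103 in LPS and 131 in control libraries. It had 585 and 523 CPM in DSF+LPS libraries, 462 and 508 CPM in DSF libraries, 426 and 430.4 CPM in LPS libraries, and 545 and 546 CPM in control libraries. LPS libraries were lowest. It fell with LPS (log2 fold change -0.35, SE 0.07, edgeR adjusted p = 0.00128) and was higher in DSF+LPS than in LPS libraries (log2 fold change 0.37, SE 0.07, edgeR adjusted p = 2.76e-04). Its fall with DSF was -0.17 (SE 0.07, edgeR adjusted p = 0.0465). The call of Trim28 was lost at -0.17 without control replicate 1 (edgeR adjusted p = 0.141), -0.17 without control replicate 2 (edgeR adjusted p = 0.152), -0.12 without DSF replicate 1 (edgeR adjusted p = 0.259), -0.17 with DESeq2 size factors (adjusted p = 0.0602) and -0.17 with DESeq2 (adjusted p = 0.0670). For Trim28 the alternatives gave edgeR adjusted p from 0.00265 to 0.259.

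Trim24, a reader of histone marks that binds nuclear receptors, had 32.0 and 36.3 CPM in DSF+LPS libraries, 38.5 and 34.8 CPM in DSF libraries, 21.9 and 21.2 CPM in LPS libraries, and 17.5 and 21.2 CPM in control libraries, with no overlap between libraries with and without the drug. It rose with DSF (log2 fold change 0.92, SE 0.12, edgeR adjusted p = 1.10e-05) and was higher in DSF+LPS than in LPS libraries (log2 fold change 0.66, SE 0.12, edgeR adjusted p = 1.77e-04). Trim33, which acts on SMAD4, had 36.7 and 33.9 CPM in DSF+LPS libraries, 49.5 and 42.8 CPM in DSF libraries, 46.8 and 49.8 CPM in LPS libraries, and 57.7 and 63.1 CPM in control libraries. The control libraries were highest and the DSF+LPS libraries lowest. Its log2 fold changes were -0.32 (SE 0.10, edgeR adjusted p = 0.0193) with LPS, -0.39 (SE 0.10, edgeR adjusted p = 0.00316) with DSF and -0.45 (SE 0.10, edgeR adjusted p = 0.00108) for DSF+LPS against LPS. The LPS call of Trim33 was lost at -0.26 without control replicate 2 (edgeR adjusted p = 0.182), -0.28 without LPS replicate 1 (edgeR adjusted p = 0.152) and -0.37 without LPS replicate 2 (edgeR adjusted p = 0.0628). For Trim33 the alternatives gave edgeR adjusted p from 0.00172 to 0.182. Trim66 had 4.19 and 5.02 CPM in DSF+LPS libraries, 3.98 and 3.51 CPM in DSF libraries, 2.90 and 2.63 CPM in LPS libraries, and 1.66 and 1.74 CPM in control libraries. It rose with DSF (log2 fold change 1.14, SE 0.26, edgeR adjusted p = 0.00153) and was higher in DSF+LPS than in LPS libraries (log2 fold change 0.73, SE 0.24, edgeR adjusted p = 0.0150). The second call of Trim66 was lost at 0.67 without LPS replicate 2 (edgeR adjusted p = 0.0868), 0.63 without DSF+LPS replicate 2 (edgeR adjusted p = 0.0745) and 0.76 with DESeq2 (adjusted p = 0.0783). For Trim66 the alternatives gave edgeR adjusted p from 0.0123 to 0.0868.

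Of 4 tested members tied to protein quality control and autophagy, 1 fell with LPS (over all genes, 13.8%), and with DSF 1 rose and 2 fell (over all genes, 31.0% and 27.1%), numbers too small to set them apart. Trim17, which in mouse neurons marks the survival factor MCL1 for degradation, had 6.31 and 2.89 CPM in DSF+LPS libraries, 3.49 and 4.65 CPM in DSF libraries, 0.589 and 0.526 CPM in LPS libraries, and 0.673 and 0.392 CPM in control libraries. Libraries with and without DSF did not overlap. It rose 7.67-fold with DSF (log2 fold change 2.94, SE 0.44, edgeR adjusted p = 4.71e-05), and was higher in DSF+LPS than in LPS libraries (log2 fold change 3.04, SE 0.43, edgeR adjusted p = 2.35e-05). Its transcript overlaps the histone gene Hist3h2a, which holds 18.3% of its 50-base stretches. Hist3h2a had 0.908 and 0.819 CPM in DSF+LPS and 1.63 and 1.08 CPM in DSF libraries. It had 0.196 and 0.287 CPM in LPS and 0.621 and 0.349 CPM in control libraries. Hist3h2a passed the low-count filter only with drug-treated libraries, so no test of it is given. The part of Hist3h2a reads in the value of Trim17 was not tested. Trim11, which promotes the clearance of misfolded proteins, had 22.2 and 27.9 CPM in DSF+LPS libraries, 26.9 and 22.6 CPM in DSF libraries, 45.7 and 39.9 CPM in LPS libraries, and 42.3 and 42.9 CPM in control libraries, and it fell with DSF (log2 fold change -0.78, SE 0.12, edgeR adjusted p = 8.00e-05) and was lower in DSF+LPS than in LPS libraries (log2 fold change -0.77, SE 0.12, edgeR adjusted p = 7.28e-05). Trim37, mutated in mulibrey nanism and active at centrioles and peroxisomes, had 68.6 and 62.7 CPM in DSF+LPS libraries, 69.8 and 72.0 CPM in DSF libraries, 78.4 and 86.8 CPM in LPS libraries, and 107 and 105 CPM in control libraries. The groups did not overlap, and control was highest. Its log2 fold changes were -0.36 (SE 0.08, edgeR adjusted p = 0.00342) with LPS, -0.58 (SE 0.08, edgeR adjusted p = 2.67e-05) with DSF and -0.33 (SE 0.08, edgeR adjusted p = 0.00258) for DSF+LPS against LPS. The LPS call of Trim37 was lost at -0.29 without LPS replicate 1 (edgeR adjusted p = 0.0694). For Trim37 the alternatives gave edgeR adjusted p from 2.02e-04 to 0.0694.

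Other large rises with the drug were in TRIM genes that were scarce without it. Trim62, a ligase for the adaptor CARD9 of fungal sensing, had 21.2 and 13.5 CPM in DSF+LPS libraries, 15.7 and 17.0 CPM in DSF libraries, 1.37 and 1.67 CPM in LPS libraries, and 2.69 and 2.75 CPM in control libraries. It rose 6.00-fold with DSF (log2 fold change 2.58, SE 0.22, edgeR adjusted p = 1.55e-07), and was higher in DSF+LPS than in LPS libraries (log2 fold change 3.51, SE 0.24, edgeR adjusted p = 1.06e-08), while LPS alone lowered it (log2 fold change -0.83, SE 0.29, edgeR adjusted p = 0.0420). The LPS call of Trim62 was lost at -0.85 without control replicate 1 (edgeR adjusted p = 0.118), -0.82 without control replicate 2 (edgeR adjusted p = 0.150), -0.70 without LPS replicate 1 (edgeR adjusted p = 0.209) and -0.98 without LPS replicate 2 (edgeR adjusted p = 0.0917). For Trim62 the alternatives gave edgeR adjusted p from 0.0110 to 0.209. Trim46, which bundles microtubules at the start of axons, had 16.1 and 24.9 CPM in DSF+LPS libraries, 16.2 and 16.3 CPM in DSF libraries, 5.16 and 4.78 CPM in LPS libraries, and 3.57 and 3.97 CPM in control libraries. It rose 4.29-fold with DSF (log2 fold change 2.10, SE 0.20, edgeR adjusted p = 5.69e-07), and was higher in DSF+LPS than in LPS libraries (log2 fold change 2.04, SE 0.19, edgeR adjusted p = 3.57e-07). Krtcap2 on the opposite strand shares 6.30% of its exon bases. Krtcap2 had means of 111 CPM in DSF+LPS, 112 in DSF, 91.9 in LPS and 86.2 CPM in control libraries, and the part of its reads in the value of Trim46 was not tested. The drug-treated libraries of Trim62 and Trim46 lay above the others, without overlap.

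Trim29, which has no RING and in mouse alveolar macrophages removes the kinase subunit NEMO, had 5.10 and 2.84 CPM in DSF+LPS libraries, 2.72 and 2.79 CPM in DSF libraries, 0.393 and 0.191 CPM in LPS libraries, and 1.03 and 0.872 CPM in control libraries. Drug-treated libraries were highest and LPS libraries lowest. It rose with DSF (log2 fold change 1.53, SE 0.38, edgeR adjusted p = 0.00325) and was higher in DSF+LPS than in LPS libraries (log2 fold change 3.75, SE 0.45, edgeR adjusted p = 4.45e-06), and it fell with LPS (log2 fold change -1.69, SE 0.52, edgeR adjusted p = 0.0247). The LPS call of Trim29 was lost at -1.56 without control replicate 1 (edgeR adjusted p = 0.108), -1.81 without control replicate 2 (edgeR adjusted p = 0.0638) and -1.26 without LPS replicate 2 (edgeR adjusted p = 0.192). For Trim29 the alternatives gave edgeR adjusted p from 0.00579 to 0.192. Trim10, which promotes red cell maturation in mice, had 21 and 19 counts in DSF+LPS, 8 and 8 in DSF, and 0 in each LPS and control library. With a floor of 3 counts over a group this is at least 14.4-fold higher in DSF+LPS than in LPS and at least 5.44-fold higher in DSF than in control libraries. Trim10 passed the low-count filter only through the DSF+LPS libraries, so no p-value is given for it. Summed erythroid markers had 1.16 and 0.709 CPM in DSF+LPS, 1.04 and 1.60 in DSF, 0.0982 and 0.908 in LPS, and 0.517 and 0.349 CPM in control libraries, with all 5 markers detected somewhere. Summed neuron markers had 11.3 and 10.0 CPM in DSF+LPS, 8.20 and 9.66 in DSF, 6.68 and 9.23 in LPS, and 7.60 and 8.15 CPM in control libraries, with 1 of 5 at 0 throughout. Both sums overlapped between libraries with and without the drug, while the number of genes with a count did not. In the neuron sum, Syn1 had 6.38 to 8.56 CPM in every library. Tubb3 had 4.24 and 2.95 CPM in DSF+LPS and 1.81 and 2.79 CPM in DSF libraries. It had 0.147 and 0.669 CPM in LPS and 0.362 and 0.174 CPM in control libraries, without overlap. Snap25 and Stmn2 had at most 0.207 CPM. The part of these markers in the rises of Trim10, Trim46 and Trim29 was not tested.

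**Figure D4:**
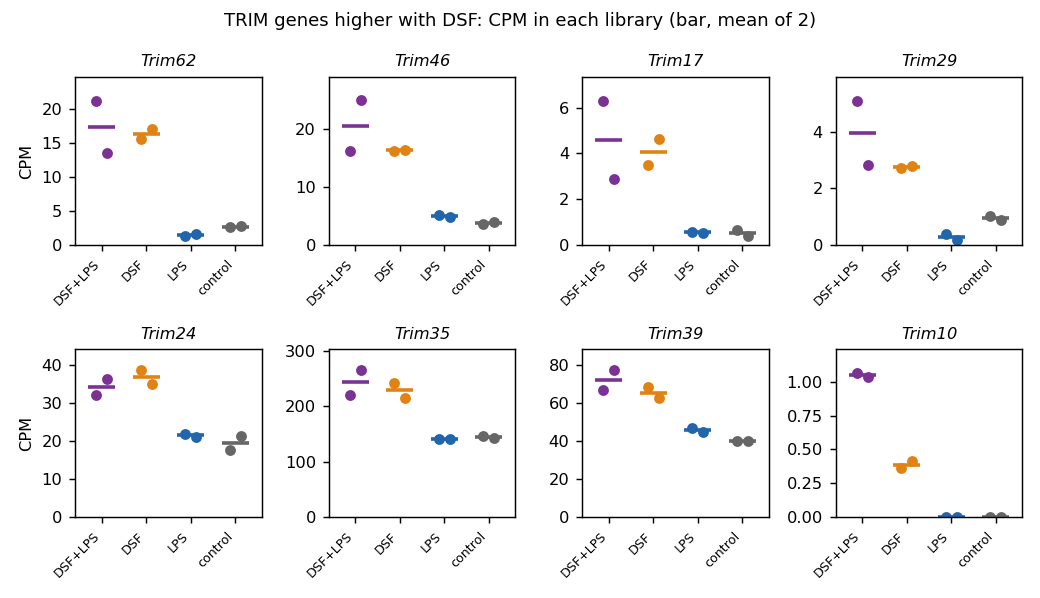
CPM (y axis, from 0) of 8 TRIM genes with higher CPM in DSF than in control libraries, in DSF+LPS, DSF, LPS and control libraries; points are the 2 libraries of a group and bars their mean. In each panel both drug-treated groups lie above the LPS and control libraries, as with 21.2 and 13.5 CPM of Trim62 in DSF+LPS against 1.37 and 1.67 CPM in LPS libraries.

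DSF also raised Trim39 (0.70), Trim41 (0.28) and Trim36 (0.76), as log2 fold changes. Trim39 had 67.0 and 77.7 CPM in DSF+LPS libraries, 68.6 and 62.6 CPM in DSF libraries, 47.2 and 44.8 CPM in LPS libraries, and 40.1 and 40.4 CPM in control libraries. In Trim39 no library without the drug reached the level of a library with it. The call of Trim41 was lost at 0.27 without control replicate 2 (edgeR adjusted p = 0.0556), 0.17 with library size alone (adjusted p = 0.0810) and 0.24 with no low-count filter (adjusted p = 0.0611). For Trim41 the alternatives gave edgeR adjusted p from 0.00547 to 0.0810. The call of Trim36 was lost at 0.53 without control replicate 2 (edgeR adjusted p = 0.183) and 0.57 without DSF replicate 2 (edgeR adjusted p = 0.142). For Trim36 the alternatives gave edgeR adjusted p from 0.00226 to 0.183. In DSF+LPS against LPS libraries Trim39 was higher by 0.65, Trim41 by 0.24 and Trim3, an NHL-domain ligase of neurons, by 0.59. This call of Trim41 was lost at 0.25 without LPS replicate 1 (edgeR adjusted p = 0.0666), 0.24 without LPS replicate 2 (edgeR adjusted p = 0.0851) and 0.23 with no low-count filter (adjusted p = 0.0648). For Trim41 the alternatives gave edgeR adjusted p from 0.00947 to 0.0851. Trim15 had 26 and 14 counts in DSF+LPS, 12 and 24 in DSF, 8 and 7 in LPS, and 3 and 7 in control libraries. Trim43c had 8 and 17 counts in DSF+LPS, 13 and 6 in DSF, 5 and 3 in LPS, and 8 and 7 in control libraries. Both passed the low-count filter only through drug-treated libraries, and their p-values are left out. Of 9 members that were called higher with DSF and had a promoter, 0 held the heat shock element (GAA, TTC and GAA, each parted by 2 bases of any kind), present in 0.662% of all genes with a promoter, and 1, Trim15, held the antioxidant response element TGACNNNGC, present in 14.0%. These 9 include Trim10 and Trim15, which passed the low-count filter only through drug-treated libraries. So few promoters cannot tell a share of 0 from 0.662%, and nothing is drawn from these matches.

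The other falls were in members from scarce, such as Trim7, to abundant, such as Trim44. Trim47 had 12.8 and 12.8 CPM in DSF+LPS libraries, 11.2 and 13.4 CPM in DSF libraries, 12.0 and 10.8 CPM in LPS libraries, and 23.3 and 22.1 CPM in control libraries, with the control libraries above all others. It fell with LPS (log2 fold change -0.99, SE 0.13, edgeR adjusted p = 3.45e-05) and with DSF (log2 fold change -0.88, SE 0.13, edgeR adjusted p = 4.35e-05). Trim7, a ligase that binds glycogenin, had 0.858 and 0.491 CPM in DSF+LPS libraries, 1.18 and 0.826 CPM in DSF libraries, 1.03 and 0.383 CPM in LPS libraries, and 2.33 and 2.96 CPM in control libraries. It fell with LPS (log2 fold change -1.90, SE 0.46, edgeR adjusted p = 0.00579) and with DSF (log2 fold change -1.39, SE 0.44, edgeR adjusted p = 0.0142), with control libraries on top. The LPS call of Trim7 was lost at -1.72 without control replicate 2 (edgeR adjusted p = 0.0623) and -1.36 without LPS replicate 2 (edgeR adjusted p = 0.0852). For Trim7 the alternatives gave edgeR adjusted p from 4.43e-05 to 0.0852. The DSF call of Trim7 was lost at -1.20 without control replicate 2 (edgeR adjusted p = 0.104), -1.17 without DSF replicate 2 (edgeR adjusted p = 0.105) and -1.40 with DESeq2 (adjusted p = 0.0620). For Trim7 the alternatives gave edgeR adjusted p from 0.00132 to 0.105. Gm12184 and Gm16170 overlap Trim7 on the opposite strand, over 8.31% of its exon bases together. Trim59, a membrane-anchored ligase, fell with LPS (log2 fold change -0.39, SE 0.12, edgeR adjusted p = 0.0188) and had 45.6 and 39.8 CPM in DSF+LPS libraries, 66.5 and 56.3 CPM in DSF libraries, 43.6 and 54.8 CPM in LPS libraries, and 62.9 and 66.3 CPM in control libraries. The LPS call of Trim59 was lost at -0.43 without control replicate 1 (edgeR adjusted p = 0.0618), -0.35 without control replicate 2 (edgeR adjusted p = 0.129) and -0.24 without LPS replicate 1 (edgeR adjusted p = 0.247). For Trim59 the alternatives gave edgeR adjusted p from 4.83e-04 to 0.247. Trim44, which has no RING, fell with DSF (log2 fold change -0.38, SE 0.08, edgeR adjusted p = 0.00104) and was lower in DSF+LPS than in LPS libraries (log2 fold change -0.62, SE 0.08, edgeR adjusted p = 1.24e-05). Trim32, mutated in a limb-girdle muscular dystrophy, fell with DSF (log2 fold change -0.33, SE 0.11, edgeR adjusted p = 0.0205) and was lower in DSF+LPS than in LPS libraries (log2 fold change -0.34, SE 0.11, edgeR adjusted p = 0.0150). The DSF call of Trim32 was lost at -0.35 without control replicate 1 (edgeR adjusted p = 0.0630), -0.31 without control replicate 2 (edgeR adjusted p = 0.103) and -0.26 without DSF replicate 2 (edgeR adjusted p = 0.146). For Trim32 the alternatives gave edgeR adjusted p from 0.00270 to 0.146. The second call of Trim32 was lost at -0.32 without LPS replicate 1 (edgeR adjusted p = 0.0779), -0.36 without LPS replicate 2 (edgeR adjusted p = 0.0502) and -0.17 without DSF+LPS replicate 1 (edgeR adjusted p = 0.154). For Trim32 the alternatives gave edgeR adjusted p from 2.54e-04 to 0.154. Without DSF+LPS replicate 2 this second value was -0.52. Trim2 and Trim45 passed the test in none of the 5 comparisons, with values between -0.82 and 0.54.

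In the presence of DSF, LPS raised 1 tested TRIM gene (2.22%, against 5.53% of all genes) and lowered 7 (15.6%, against 6.53%), none by 2-fold. Trim13 was the only tested member that rose in DSF+LPS against DSF libraries (log2 fold change 0.84, SE 0.24, edgeR adjusted p = 0.0345). The call of Trim13 was lost at 0.48 without DSF replicate 2 (edgeR adjusted p = 0.202), 0.57 without DSF+LPS replicate 2 (edgeR adjusted p = 0.139), 0.73 with library size alone (adjusted p = 0.0524) and 0.86 with only the libraries of the comparison (adjusted p = 0.158). For Trim13 the alternatives gave edgeR adjusted p from 4.21e-04 to 0.202. Without DSF replicate 1 its value was 1.37. Falls were called for Trim12a (-0.98), Trim23 (-0.70), Trim16 (-0.67), Trim59 (-0.52), Trim30a (-0.50), Trim33 (-0.39) and Trim8 (-0.32), as log2 fold changes with edgeR adjusted p between 0.00745 and 0.0473. Of these 7, Trim12a and Trim30a rose with LPS alone, Trim59, Trim33 and Trim8 fell, and Trim23 and Trim16 were not called. Trim16, which directs autophagy to damaged lysosomes, had 5.55 and 7.80 CPM in DSF+LPS libraries, 12.6 and 8.47 CPM in DSF libraries, 7.37 and 7.70 CPM in LPS libraries, and 10.8 and 10.9 CPM in control libraries, and its DSF libraries differed from each other more than those of LPS. The call of Trim12a was lost at -0.90 without DSF replicate 1 (edgeR adjusted p = 0.0834) and -0.97 with only the libraries of the comparison (adjusted p = 0.0784). For Trim12a the alternatives gave edgeR adjusted p from 0.00105 to 0.0834. The call of Trim23 was lost at -0.48 without DSF replicate 1 (edgeR adjusted p = 0.179) and -0.69 with only the libraries of the comparison (adjusted p = 0.0846). For Trim23 the alternatives gave edgeR adjusted p from 0.00140 to 0.179. The call of Trim16 was lost at -0.34 without DSF replicate 1 (edgeR adjusted p = 0.489), -0.44 without DSF+LPS replicate 1 (edgeR adjusted p = 0.188), -0.65 with DESeq2 (adjusted p = 0.0715) and -0.66 with only the libraries of the comparison (adjusted p = 0.164). For Trim16 the alternatives gave edgeR adjusted p from 0.00773 to 0.489. The call of Trim59 was lost at -0.39 without DSF replicate 1 (edgeR adjusted p = 0.187). For Trim59 the alternatives gave edgeR adjusted p from 2.43e-05 to 0.187. The call of Trim30a was lost at -0.40 without DSF replicate 1 (edgeR adjusted p = 0.155) and -0.49 with only the libraries of the comparison (adjusted p = 0.120). For Trim30a the alternatives gave edgeR adjusted p from 0.00282 to 0.155. The call of Trim33 was lost at -0.27 without DSF replicate 1 (edgeR adjusted p = 0.280), -0.30 without DSF+LPS replicate 2 (edgeR adjusted p = 0.0796) and -0.38 with only the libraries of the comparison (adjusted p = 0.105). For Trim33 the alternatives gave edgeR adjusted p from 0.00574 to 0.280. The call of Trim8 was lost at -0.20 without DSF replicate 1 (edgeR adjusted p = 0.361), -0.24 without DSF+LPS replicate 1 (edgeR adjusted p = 0.112) and -0.31 with only the libraries of the comparison (adjusted p = 0.147). For Trim8 the alternatives gave edgeR adjusted p from 0.00759 to 0.361. All 7 calls thus rested on DSF replicate 1. The libraries of the groups did not overlap in 7 tested TRIM genes higher and 15 lower in DSF+LPS than in DSF (over all genes, 24.3% and 27.5%).

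The difference between the LPS responses was tested directly as the interaction. The 5 most negative values among called members with at least 1 CPM belonged to the Trim5 cluster, with Trim30b at -4.02 (SE 0.72, edgeR adjusted p = 0.00104), Trim30d at -3.60 (SE 0.48, edgeR adjusted p = 7.38e-05), Trim34a at -3.52 (SE 0.34, edgeR adjusted p = 3.16e-06), Trim12a at -3.30 (SE 0.26, edgeR adjusted p = 5.02e-07) and Trim30a at -3.00 (SE 0.14, edgeR adjusted p = 3.19e-09). Each rose with LPS alone, and none of them rose in DSF+LPS against DSF libraries. Trim13 had -2.35, Trim21 -2.06, Trim12c -1.81, Trim56 -1.56, Trim26 -0.91, Trim25 -0.87 and Trim14 -0.82. Trim30c had -2.70 (SE 0.93, edgeR adjusted p = 0.0543) and was not called. Positive values were called for Trim29 at 2.22 (SE 0.62, edgeR adjusted p = 0.0213), Trim65 at 1.16 (SE 0.26, edgeR adjusted p = 0.00584), Trim47 at 1.05 (SE 0.19, edgeR adjusted p = 0.00108), Trim28 at 0.54 (SE 0.10, edgeR adjusted p = 0.00111) and Trim3 at 0.47 (SE 0.15, edgeR adjusted p = 0.0417), of which Trim29, Trim65, Trim47 and Trim28 fell with LPS alone. Trim3 had 29.7 and 29.7 CPM in DSF+LPS libraries, 24.6 and 26.0 CPM in DSF libraries, 21.1 and 18.4 CPM in LPS libraries, and 24.0 and 22.7 CPM in control libraries, highest in DSF+LPS libraries. The call of Trim29 was lost at 2.09 without control replicate 1 (edgeR adjusted p = 0.0808), 2.23 without DSF replicate 1 (edgeR adjusted p = 0.0570), 1.79 without LPS replicate 2 (edgeR adjusted p = 0.123) and 1.75 without DSF+LPS replicate 1 (edgeR adjusted p = 0.0620). For Trim29 the alternatives gave edgeR adjusted p from 0.00258 to 0.123. The call of Trim3 was lost at 0.43 without control replicate 1 (edgeR adjusted p = 0.151), 0.51 without control replicate 2 (edgeR adjusted p = 0.0856), 0.46 without DSF replicate 1 (edgeR adjusted p = 0.102), 0.51 without DSF replicate 2 (edgeR adjusted p = 0.0626), 0.38 without LPS replicate 2 (edgeR adjusted p = 0.197), 0.50 with DESeq2 (adjusted p = 0.0739) and 0.50 with no low-count filter (adjusted p = 0.0591). For Trim3 the alternatives gave edgeR adjusted p from 0.0245 to 0.197. The call of Trim23 was lost at -0.62 without control replicate 1 (edgeR adjusted p = 0.135), -0.74 without control replicate 2 (edgeR adjusted p = 0.0743), -0.44 without DSF replicate 1 (edgeR adjusted p = 0.210), -0.63 without LPS replicate 1 (edgeR adjusted p = 0.118), -0.73 without LPS replicate 2 (edgeR adjusted p = 0.0810), -0.61 without DSF+LPS replicate 2 (edgeR adjusted p = 0.0614), -0.63 with library size alone (adjusted p = 0.0550) and -0.66 with DESeq2 (adjusted p = 0.0918). For Trim23 the alternatives gave edgeR adjusted p from 0.0112 to 0.210. With all libraries the value of Trim23 was -0.68. Trim36 had -1.20 (SE 0.35, edgeR adjusted p = 0.0256). The call of Trim36 was lost at -0.97 without control replicate 2 (edgeR adjusted p = 0.133), -1.01 without DSF replicate 2 (edgeR adjusted p = 0.0965), -1.04 without LPS replicate 2 (edgeR adjusted p = 0.124) and -0.83 without DSF+LPS replicate 2 (edgeR adjusted p = 0.0552). For Trim36 the alternatives gave edgeR adjusted p from 8.76e-04 to 0.133. Comparisons that share libraries, such as LPS against control and DSF+LPS against LPS, are not independent of each other.

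**Figure D5:**
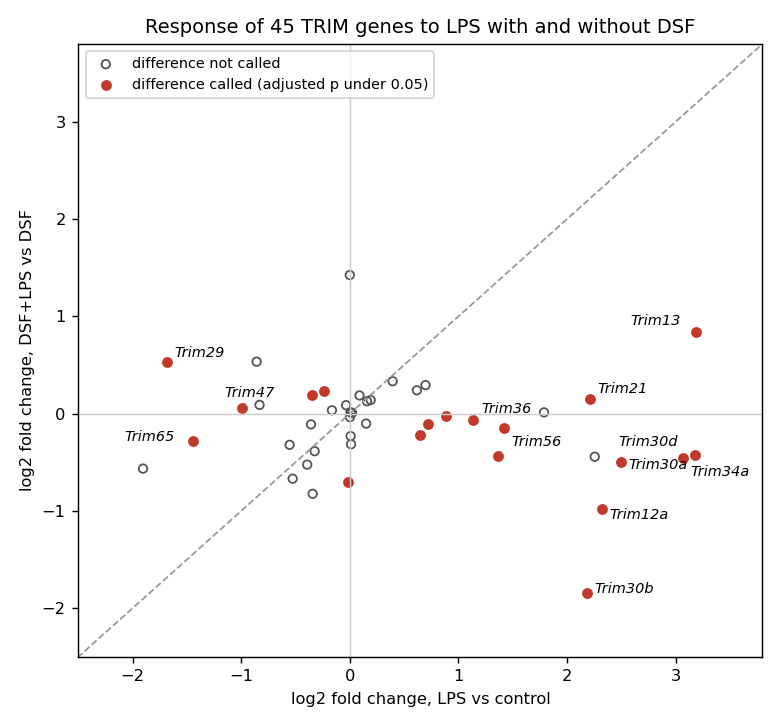
Log2 fold change of the 45 tested TRIM genes in DSF+LPS against DSF libraries (y axis) and in LPS against control libraries (x axis); the dashed line marks equal responses, and filled points have a called difference. Genes such as Trim30d (-0.43 on the y axis and 3.18 on the x axis) lie near 0 on the y axis and far right on the x axis.

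The 23 untested members were at or near the limit of detection in all groups. The highest value in any library was 1.20 CPM, of Trim34b with LPS. Trim6, Trim42 and Trim60 had 0 counts throughout. Of the 23, 19 had at least 1 count in DSF+LPS, 17 in DSF, 9 in LPS and 9 in control libraries, and their counts together were 75 and 61 in DSF+LPS, 47 and 72 in DSF, 16 and 39 in LPS, and 11 and 16 in control libraries. The number of all genes with a count differed the same way between groups, as given above. Trim67, a neuronal member of the COS box group, had 15 counts in DSF+LPS and 0 in LPS libraries, at least 5.41-fold higher. Summed muscle markers are given above. Of these, Acta1 had 2.02 and 1.58 CPM in DSF+LPS and 1.68 and 1.76 CPM in DSF libraries. It had 0.246 and 0.574 CPM in LPS and 0.569 and 0.697 CPM in control libraries, without overlap. Ttn was instead highest with LPS, and Des, Ckm and Myh4 had at most 0.252 CPM. The part of these markers was not tested. Trim55, of muscle, had 13 counts in DSF and 0 in control libraries, at least 4.42-fold higher. The muscle ligase Trim63, also called MuRF1, had 10 in DSF and 0 in control libraries, at least 3.40-fold higher. It also had 5 and 0 counts in the DSF+LPS libraries and 0 in LPS libraries, at least 1.80-fold higher. These folds were not tested and take the counts above 0 as exact, so true folds may be smaller.

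Genes that work with TRIM proteins were taken from lists of known partners. Over all genes tested, 15.2% rose and 13.8% fell with LPS, and 33.7% were higher and 31.6% lower in DSF+LPS than in LPS libraries. Of 11 E2 enzymes tested, 3 rose and 0 fell with LPS, and 1 was higher and 10 were lower in DSF+LPS than in LPS libraries (median -0.51, against 0.04 over all genes). Ube2l6, the E2 of ISG15, had 1.58 with LPS and -1.79 for DSF+LPS against LPS, and Ube2v2, a partner of Ube2n in lysine-63 chains, had -1.75 in the second comparison. Of 16 sensors and adaptors that TRIM proteins modify, 7 rose and 1 fell with LPS, and 3 were higher and 10 lower in DSF+LPS than in LPS libraries. Ddx58, which encodes the TRIM25 target RIG-I, had 21.6 and 19.9 CPM in DSF+LPS libraries, 24.9 and 24.9 CPM in DSF libraries, 265 and 254 CPM in LPS libraries, and 66.4 and 68.5 CPM in control libraries. It rose with LPS (log2 fold change 1.94, SE 0.08, edgeR adjusted p = 4.34e-11) and was lower in DSF+LPS than in LPS libraries (log2 fold change -3.65, SE 0.08, edgeR adjusted p = 1.83e-13). Ifih1, which encodes the TRIM65 target MDA5, rose with LPS (log2 fold change 2.51, SE 0.09, edgeR adjusted p = 2.93e-11) while Trim65 fell, and was lower in DSF+LPS than in LPS libraries (log2 fold change -3.27, SE 0.10, edgeR adjusted p = 2.35e-12). Of 9 interferon signalling genes, 6 rose and 0 fell with LPS, and 1 was higher and 8 were lower in DSF+LPS than in LPS libraries. Stat2 had 1.94 and -2.60 and Irf9 1.08 and -2.01 in these 2 comparisons, as log2 fold changes. Of 3 tested TRIM proteins with other names, Pml, the organizer of nuclear bodies, rose with LPS (log2 fold change 1.08, SE 0.10, edgeR adjusted p = 7.11e-07) and was lower in DSF+LPS than in LPS libraries (log2 fold change -2.05, SE 0.10, edgeR adjusted p = 4.34e-10). Mid1, a microtubule-bound member, rose with LPS (log2 fold change 0.87, SE 0.16, edgeR adjusted p = 6.49e-04) and with DSF (log2 fold change 2.08, SE 0.15, edgeR adjusted p = 2.78e-08). Mefv, which encodes pyrin, had 0.908 and 2.51 CPM in DSF+LPS and 0.317 and 0.310 CPM in DSF libraries. It had 0.589 and 0.335 CPM in LPS and 0.155 and 0.0436 CPM in control libraries. Mefv passed the low-count filter only with the DSF+LPS libraries, where it was highest, so no p-value is given for it.

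Of 10 genes of the heat shock factor and NRF2 programmes, 6 rose and 3 fell with DSF (over all genes, 31.0% and 27.1%), with a median log2 fold change of 3.29. Hspa1a, an inducible HSP70 gene, had 9.67 and Hmox1, which encodes heme oxygenase-1, had 5.13. With LPS alone these genes had -0.12 and 0.20 and were not called. The 3 genes of this list that fell with DSF were Keap1 (-0.72), Hsf1 (-0.35) and Nfe2l2 (-0.21). The lists of partners were chosen with earlier results of these data known, so these counts are descriptions.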

How the data were processed

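The deposited values were raw, whole-number counts of reads on each gene in every library. Per the submitters' processing notes, GRCm39 and DESeq2 were used, in roles left unstated. The aligner, the counter, the strand setting and the treatment of multiply matching reads were not given in the sources used here. Of 55414 identifiers, 52081 matched a symbol in GENCODE M21, an annotation of the older assembly GRCm38, which also gave exon lengths, overlaps and shared 50-base stretches of the longest transcripts. Promoters and gene order came from RefSeq for GRCm38.p6.

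Counts were tested with edgeR 4.0.16 in R 4.3.3 by the quasi-likelihood test, after TMM scaling and filterByExpr (minimum count 10, minimum total 15). All 8 libraries entered 1 fit with a mean per group and no other term. P-values were adjusted by Benjamini-Hochberg over 16304 genes within a comparison. SE was taken as the absolute log2 fold change over the root of its F statistic. CPM use TMM-scaled library sizes, also in the marker sums. A group at 0 counts was set to 3 counts for a lower bound. This allows for counting error in that group only and takes the counts of the other group as exact, so true folds may be smaller.

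Values are given for the 5 largest called rises and falls per comparison at 1 CPM or more, and for called members of 4 role groups at 5 CPM or more. Other members were named after their values were seen. The members and lists were chosen with earlier results of these data known. In simulated data, only a small part of the genes was changed, unlike the many calls with the drug here. Genes changed 2-fold were recovered at 68.5% for LPS against control (15616 genes tested), 74.5% for DSF against control (15613), 72.0% for DSF+LPS against LPS (15637) and 71.0% for DSF+LPS against DSF (15604). Of the calls in these simulated data, 3.66% to 6.71% were false. Alternatives were other scalings, DESeq2 1.42.0, no low-count filter, a replicate block, a fit to only the libraries compared, and leaving out each library. Where a range of edgeR adjusted p over the alternatives is given, it also covers the adjusted p of the DESeq2 fit.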

Additional observations from a re-analysis of the deposited data

Results flagged for a closer look

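The LPS response with DSF differed from that without it in 19 of 45 tested TRIM genes, by an interaction term in edgeR with an adjusted p under 0.05. Negative differences on the log2 scale were found in Trim30b (-4.02), Trim30d (-3.60), Trim34a (-3.52), Trim12a (-3.30), Trim30a (-3.00) and Trim12c (-1.81), all of the Trim5 cluster on chromosome 7. They were also found in Trim13 (-2.35), Trim21 (-2.06), Trim56 (-1.56), Trim26 (-0.91), Trim25 (-0.87), Trim14 (-0.82) and Trim23 (-0.68), which act on innate signalling, and in Trim36 (-1.20). Positive differences were found in Trim29 (2.22), Trim65 (1.16), Trim47 (1.05), Trim28 (0.54) and Trim3 (0.47). Of these 19 calls, those of Trim23, Trim36, Trim29 and Trim3 were lost under at least 1 alternative, and the other 15 were kept under all of those run. For Trim36 the value was -0.97 without control replicate 2 (edgeR adjusted p = 0.133), -1.01 without DSF replicate 2 (edgeR adjusted p = 0.0965), -1.04 without LPS replicate 2 (edgeR adjusted p = 0.124) and -0.83 without DSF+LPS replicate 2 (edgeR adjusted p = 0.0552).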

How the results depend on the processing

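Of 117 calls of a TRIM gene in a comparison, 86 held under every alternative run, 31 were lost under at least 1, and 0 changed direction. The 117 include calls of Trim10, Trim15 and Trim43c, which support nothing, since these genes passed the low-count filter only through drug-treated libraries. Those of Trim10 are among the 86. The counts that moved most were those of the fewest calls. The falls with LPS, 10 as reported, ranged from 5 to 11 over the fits that leave out 1 library. The rise in DSF+LPS against DSF, 1 as reported, became 0 with library size alone, 2 with DESeq2, 2 with no low-count filter and 0 with only the libraries of the comparison, and ranged from 0 to 2 over the fits that leave out 1 library. The falls in DSF+LPS against DSF, 7 as reported, became 1 with only the libraries of the comparison and 10 with library size alone, and ranged from 0 to 8 when a library was left out. The positive interactions, 5 as reported, ranged from 3 to 7 in the same way. Library size alone moved the median of all genes by -0.14 (log2) for LPS against control, -0.10 for DSF against control and -0.11 for DSF+LPS against DSF. It also changed the share of upward calls over all genes with LPS to 30.0%, against 52.5% as reported. The cause of these losses was not tested.

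The labels give no shared source for same-numbered libraries, so whether the replicate numbers pair the samples is unknown. Deviations of same-numbered libraries correlated between -0.12 (DSF with DSF+LPS) and 0.05, which cannot settle it with 2 libraries per group. With a replicate block, 14 TRIM genes rose and 10 fell with LPS, 13 and 17 with DSF, 13 and 21 in DSF+LPS against LPS, 1 and 8 in DSF+LPS against DSF, and the interaction was positive in 5 and negative in 14. With the numbers of the DSF and DSF+LPS libraries crossed in the block, an alternative chosen after seeing the data, 1 rose and 7 fell. Depth limits the members under 1 CPM, which rest on few reads.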
